A study of Mus musculus with 45 samples.

Results

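The genes described here are 10 members of the amino acid response that ATF4 and CHOP drive: the transcription factor genes Atf4, Atf5 and Ddit3 (the gene of CHOP), the pseudokinase gene Trib3, the glutathione-degrading enzyme gene Chac1, and the enzyme genes Asns, Psat1, Phgdh, Mthfd2 and Aldh1l2. They were chosen by symbol from deposited tables of 28196 genes. The rule used no measured value, but earlier results of these data were known when the genes were chosen. The 10 symbols fill 11 rows of each table, because Ddit3 has an extra row, and all 10 genes passed the filter on low values in both tables. RNA had been sequenced from spleen B2 cells of C57BL/6 mice before and during culture toward antibody-secreting cells, in 45 libraries that form 15 groups of 3. Wild type groups were B cells at day 0, TLR and BCR cultures at days 4, 7 and 10, and LPS cultures at days 4 and 7. The other 6 groups carry the label Prdm1 delta ex1A, written dEx1A, and cover days 4 and 7 of all 3 cultures. Prdm1 encodes Blimp-1, the repressor that directs plasma cell differentiation, and the allele's name refers to its exon 1A. TLR cells were started with LPS (5 µg/mL) on irradiated L cells that carry CD40L, and were given IL-4 (50 ng/mL) together with IL-5 (50 ng/mL). BCR cells had the same feeders and cytokines with anti-IgM/IgG at 12 µg/mL. Cells of both cultures left the feeders at day 2 and were reseeded at day 4 in IL-6 at 10 ng/mL and APRIL at 100 ng/mL, with amino acids and lipids added to the medium. What the LPS culture contained is not given in the sources used here. Wild type LPS and all dEx1A groups came from 9-week females, and the other wild type groups from 7-week males, per each sample's own label, although the protocol text describes the mice as matched. Cells are labelled plasmablasts through day 7 and plasma cells at the last time point.

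ATF4 is made when the translation factor eIF2 is phosphorylated, by GCN2 when amino acids are scarce or by PERK when unfolded protein accumulates in the endoplasmic reticulum, so its output is set largely by translation of its mRNA rather than by the mRNA level. ATF4 then raises genes of amino acid synthesis, transport and tRNA charging, and under prolonged stress CHOP, with which it shares many targets. Plasma cells secrete large amounts of antibody and are known for a strong XBP1 branch of the unfolded protein response with a weaker PERK branch.

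The C/EBP-ATF composite element that ATF4 binds is shown because it is the sequence through which these genes are known to respond to amino acid shortage. RefSeq promoter windows (GRCm38.p6, 250 bases before to 50 after the start site) matched 9 of the 10 genes. Aldh1l2 had none. The letters TGATGNAA, searched on both strands, lay in the windows of 3 of these 9 genes, against 4.51% of 27025 genes and 3.97% of 32851 windows. Each 30-base stretch below is printed 5′ to 3′ on the strand of its gene, with the match in capitals.
Asns, chr6:7693214-7693243, minus strand: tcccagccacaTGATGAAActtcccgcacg
Chac1, chr2:119351038-119351067, plus strand: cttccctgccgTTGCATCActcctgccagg
Trib3, chr2:152344028-152344057, minus strand: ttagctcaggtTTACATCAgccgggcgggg
The Asns match reads along the gene and starts 23 bases before the RefSeq start site. In Chac1 the match reads on the opposite strand and starts 193 bases before it. In Trib3 it also reads on the opposite strand and lies after the RefSeq start. The GENCODE gene coordinates given below place the start elsewhere: by them the Asns match lies within the gene and the Trib3 match before it, while the Chac1 match lies before the gene by both. A match describes letters in a window, and binding was not measured.

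Values are log2 expression after a variance-stabilising transformation. A count of 0 reads 3.04 on this scale, and differences of genes with few reads are compressed and so understated. Reads per library, recovered from the values, ran from 15.04 M to 35.42 M. A total of 15 libraries held under 20 M reads, namely wild type LPS at both days and all dEx1A libraries at day 7. These 15 also stood apart in composition: the GC offset, which is the median log2 deviation of GC-rich genes less that of GC-poor genes, ran from 0.72 to 1.68 in them and from -1.9 to 0.6 in the other 30. Comparisons that cross these sets are named as such, and for them genotype, day or culture cannot be told apart from the library set. For those comparisons the value corrected for GC content and length is given beside results that it moves. B cell markers were present in every group, with 8 of 8 detected, and summed to 12200 to 12900 CPM (recovered reads scaled to the same library total) at day 0. Antibody-secreting cell markers summed to 4110 to 5040 CPM at day 0 and 360000 to 435000 in wild type TLR cultures at day 10. Prdm1 itself, read over the whole gene, was 13.19 ± 0.21 (SD, n = 3) in wild type and 11.81 ± 0.09 in dEx1A TLR cultures at day 7. That pair crosses the library sets, sex and age, and no corrected value of Prdm1 is given. At day 4 of TLR culture it was 9.78 ± 0.11 in wild type and 10.08 ± 0.47 in dEx1A cells. In LPS culture at day 7, within 1 library set, it was 12.61 ± 0.19 and 11.21 ± 0.11. Nothing in the labels says that replicates came from separate animals, so p-values measure the spread between these samples, which may be technical. In bulk RNA, fewer cells of a type and less RNA per cell cannot be told apart.

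**Figure D1:**
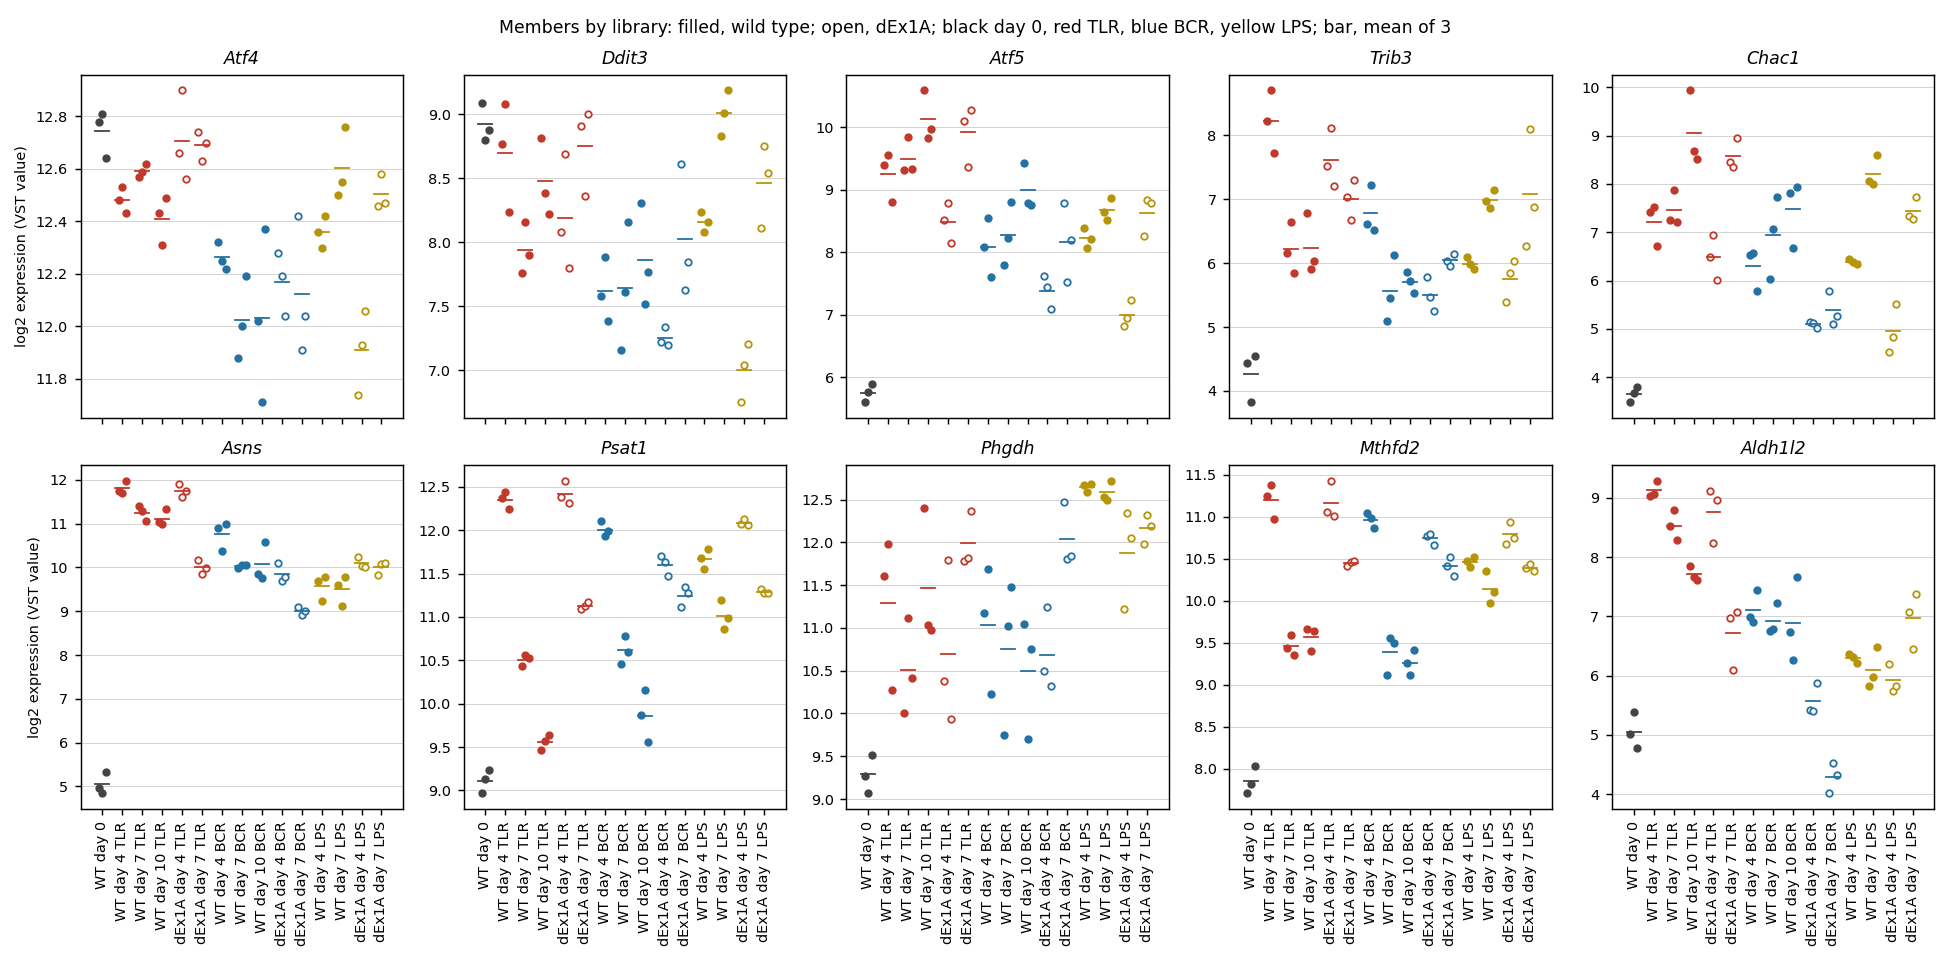
Log2 expression (vertical axes, VST value) of the 10 genes in each library of the 15 groups (horizontal axis), with filled points for wild type, open points for dEx1A and bars for the mean of 3. Asns stood between 4.85 and 5.33 at day 0 and between 8.92 and 11.98 in every cultured library, while Atf4 stayed between 11.71 and 12.9 throughout.

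The first comparison asked how the genes differed between B cells and cells activated for 4 days. In the TLR culture 8 of the 10 genes rose and none fell, and in the BCR culture 8 rose and 2 fell. The background was high: 48.3% of all genes tested changed at day 4 of TLR culture and 50.6% at day 4 of BCR culture, so the number of members called says less than the size of their differences. The median difference of the 10 was 3.42 in TLR and 2.42 in BCR culture, beside 0.01 and 0.0 over all genes tested. The 8 that rose are the effectors and enzymes with Atf5. The genes of ATF4 and CHOP themselves did not rise.

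Atf4 (chr15:80255184-80257541, plus strand) encodes the factor at the head of the response. Its libraries read 12.78, 12.81 and 12.64 at day 0, 12.48, 12.53 and 12.43 at day 4 of TLR culture, and 12.32, 12.25 and 12.22 at day 4 of BCR culture. All 6 cultured libraries lay below the 3 at day 0. The difference was -0.26 ± 0.14 (SE) in TLR culture (adjusted p = 0.125) and -0.48 ± 0.14 in BCR culture (adjusted p = 0.00724, limma). The BCR call was lost with the correction for GC content and length, where the difference was -0.36 (adjusted p = 0.171), and with median-centred libraries. Per kilobase of exon Atf4 was the most abundant of the 10 at day 0, at 2900 normalised reads, with Ddit3 next at 275 and Phgdh at 247.

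Ddit3 (chr10:127290774-127296288, plus strand) encodes CHOP, a C/EBP factor associated with unresolved stress. Its libraries read 9.09, 8.8 and 8.88 at day 0, 8.77, 9.08 and 8.24 at day 4 of TLR culture, and 7.58, 7.89 and 7.39 at day 4 of BCR culture. The TLR libraries overlapped day 0, with a difference of -0.23 ± 0.27 (adjusted p = 0.516), and every BCR library lay below them. Ddit3 fell by 1.3 ± 0.27 in BCR culture (adjusted p = 0.000538). The extra row of the same symbol is an overlapping locus at the 5′ end of the gene, with 105 exon bases. It held 0 to 20 reads per library, and how reads were divided between the rows is not given in the sources used here, so all Ddit3 values are those of the main row.

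Atf5 (chr7:44812256-44816658, minus strand) encodes a stress factor whose mRNA is translated under the same control as that of ATF4. Its libraries rose from 5.6, 5.76 and 5.89 at day 0 to 9.39, 9.55 and 8.81 in TLR culture and 8.08, 8.55 and 7.6 in BCR culture. The groups did not overlap, and the differences were 3.5 ± 0.3 (adjusted p = 2.42e-08) and 2.33 ± 0.3 (adjusted p = 3.65e-06).

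Trib3 (chr2:152337422-152344032, minus strand) encodes a pseudokinase that restrains AKT and ATF4 itself. It read 4.43, 3.82 and 4.54 at day 0, 8.23, 8.71 and 7.72 in TLR culture, and 6.61, 7.22 and 6.52 in BCR culture. It rose by 3.96 ± 0.33 (adjusted p = 1.8e-08) and 2.52 ± 0.33 (adjusted p = 4.6e-06). Chac1 (chr2:119351229-119354381, plus strand), whose product breaks down glutathione, read 3.48, 3.68 and 3.79 at day 0, close to the value of a count of 0, and 7.41, 7.52 and 6.71 in TLR culture. The BCR libraries of Chac1 read 6.53, 6.58 and 5.79. Its differences were 3.56 ± 0.44 (adjusted p = 2.65e-06) and 2.65 ± 0.44 (adjusted p = 6.65e-05).

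Asns (chr6:7675169-7693254, minus strand) encodes asparagine synthetase and moved most among the 10 in both cultures. Its libraries read 4.97, 4.85 and 5.33 at day 0, 11.75, 11.7 and 11.98 in TLR culture, and 10.91, 10.38 and 11.0 in BCR culture. No cultured library came near day 0. The rise was 6.76 ± 0.21 (adjusted p = 8.95e-14) in TLR and 5.71 ± 0.21 (adjusted p = 4.99e-13) in BCR culture. In normalised reads per kilobase Asns stood at 6.98 at day 0, 1310 in TLR and 641 in BCR culture.

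Phgdh and Psat1 encode the opening steps of serine synthesis from glycolysis. Psat1 (chr19:15904678-15947337, minus strand) read 8.97, 9.13 and 9.24 at day 0, 12.37, 12.44 and 12.24 in TLR culture, and 12.1, 11.93 and 11.99 in BCR culture. It rose by 3.24 ± 0.14 (adjusted p = 3.12e-12) and 2.89 ± 0.14 (adjusted p = 1.24e-11). Phgdh (chr3:98313170-98339990, minus strand) read 9.27, 9.07 and 9.52 at day 0 and 11.61, 11.98 and 10.27 in TLR culture. It rose by 2.0 ± 0.53 (adjusted p = 0.00481) in TLR culture and by 1.74 ± 0.53 (adjusted p = 0.0111) in BCR culture. The TLR replicates of Phgdh followed their GC offsets of -0.27, 0.02 and -1.48, and the BCR call was lost without BCR replicate 2 at day 4 (adjusted p = 0.0579).

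Mthfd2 and Aldh1l2 encode mitochondrial enzymes of folate metabolism, which takes its carbon from serine. Mthfd2 (chr6:83305691-83325908, minus strand) read 7.71, 7.82 and 8.03 at day 0, 11.25, 11.38 and 10.97 in TLR culture, and 11.04, 10.99 and 10.87 in BCR culture. It rose by 3.35 ± 0.15 (adjusted p = 4.55e-12) and 3.11 ± 0.15 (adjusted p = 1.13e-11). Aldh1l2 (chr10:83487450-83534140, minus strand) read 5.01, 5.38 and 4.78 at day 0, 9.04, 9.06 and 9.29 in TLR culture, and 6.99, 6.91 and 7.45 in BCR culture. Its rise was 4.07 ± 0.28 (adjusted p = 1.32e-09) and 2.06 ± 0.28 (adjusted p = 6.62e-06), and the TLR and BCR libraries did not overlap.

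Other genes of the pathway moved in the same window, in which 48.3% of all genes changed in TLR and 50.6% in BCR culture. Among 16 other ATF4 or CHOP stress targets tested, 13 rose and 1 fell at day 4 of TLR culture, and 12 rose and 2 fell in BCR culture, with the lipoprotein receptor gene Vldlr up by 5.13 ± 0.28 and Gadd45a down, at -1.02 ± 0.33, in TLR culture. Among 16 other genes of amino acid synthesis 11 rose and none fell in each culture, such as Cth, which makes cysteine, by 6.08 ± 0.2 in TLR culture, and Bcat1, a branched-chain aminotransferase, by 5.46 ± 0.2. Of 12 tRNA synthetases 11 rose and none fell in each culture, led by the glycyl enzyme gene Gars at 2.07 ± 0.13 in TLR culture. Of 11 amino acid transporters 7 rose and 1 fell in TLR culture, with Slc7a3 at 5.15 ± 0.28. Of 12 serine, glycine and folate enzymes 8 rose and none fell in each culture. Psph, the last step of serine synthesis, rose by 2.03 ± 0.23 in TLR culture. Aldh1l1, the cytosolic counterpart of Aldh1l2, differed by 0.63 ± 0.38 (adjusted p = 0.18), and Mthfd2l, a relative of Mthfd2, by 0.64 ± 0.35 (adjusted p = 0.139). Of 8 eIF2 kinase and phosphatase genes 2 rose and 4 fell in TLR culture, among them Ppp1r15a, the stress-induced phosphatase subunit, at -2.87 ± 0.43, and Eif2ak3, the gene of PERK, at -1.3 ± 0.17. Cycling markers rose with these genes, from 149 to 177 CPM at day 0 to 3120 to 3690 in TLR and 3440 to 4530 in BCR culture. Fibroblast markers, which the feeders carry, stood at 97.4 to 215 CPM in TLR and 155 to 322 in BCR cultures against 3.01 to 8.16 at day 0, with 11 of 12 detected in each culture. The part of either in the members' values was not tested.

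Between days 4 and 7 Psat1, Mthfd2, Trib3 and Asns fell in both TLR and BCR culture. In TLR culture 5 of the 10 members fell and none rose, against 36.3% of all genes changed. In BCR culture 4 fell and none rose, against 30.5% changed. Without regard to direction these shares lie near the background and are no result about the members. Of the 19497 genes tested 3633 fell and 3451 rose in TLR culture, and 2962 fell and 2976 rose in BCR culture. Psat1 went from 12.37, 12.44 and 12.24 to 10.43, 10.56 and 10.53 in TLR culture, and from 12.1, 11.93 and 11.99 to 10.46, 10.78 and 10.6 in BCR culture, with no overlap in either. It fell by 1.84 ± 0.14 (adjusted p = 1.2e-08) and by 1.39 ± 0.14 (adjusted p = 5.38e-07). Mthfd2 fell by 1.74 ± 0.15 (adjusted p = 5.53e-08) and by 1.57 ± 0.15 (adjusted p = 2.71e-07).

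Trib3 dropped by 2.0 ± 0.33 (adjusted p = 0.000116) in TLR and by 1.22 ± 0.33 (adjusted p = 0.00844) in BCR culture. Asns dropped by 0.56 ± 0.21 (adjusted p = 0.0434) and by 0.73 ± 0.21 (adjusted p = 0.0117), and so kept most of its level, with day 7 libraries of 11.41, 11.29 and 11.06 in TLR and 9.98, 10.06 and 10.06 in BCR culture. Ddit3 fell in TLR culture by 0.76 ± 0.27 (adjusted p = 0.0347) and differed by 0.02 ± 0.27 in BCR culture. Atf4, Atf5, Chac1, Phgdh and Aldh1l2 passed in neither culture. Leaving out TLR replicate 1 or 2 at day 4, or TLR replicate 1 or 3 at day 7, brought the TLR count from 5 to 3, the losses being Asns and Ddit3.

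Pathway genes outside the members divided at this step, at which 36.3% of all genes changed in TLR and 30.5% in BCR culture. All 16 genes of the XBP1 and ATF6 branch rose in TLR culture and all 16 in BCR culture, such as Ern1, the gene of the IRE1 sensor, by 3.38 ± 0.27 in TLR culture and Pdia4 by 2.12 ± 0.18. In contrast 10 of 16 other ATF4 or CHOP targets fell and none rose in TLR culture, with Vldlr at -4.09 ± 0.28, and 7 fell while 1 rose in BCR culture. Of the 12 serine, glycine and folate enzymes 7 fell in TLR and 9 in BCR culture and none rose, and Mthfd1l, which acts beside Mthfd2 in mitochondria, fell by 2.07 ± 0.12 in TLR culture. Among other synthesis genes 1 rose in each culture, Pycr1 of proline synthesis, by 1.37 ± 0.34 in TLR and 2.54 ± 0.34 in BCR culture. Cycling markers went down at the same step, to 737 to 1260 CPM in TLR and 1470 to 2060 in BCR cultures, and their part was not tested.

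From day 7 to day 10 few members moved. In TLR culture 2 of 10 passed, against 8.2% of all genes, and in BCR culture 1 of 10, against 16.7%. Psat1 went on down in both, from 10.43, 10.56 and 10.53 to 9.47, 9.57 and 9.64 in TLR culture and from 10.46, 10.78 and 10.6 to 9.87, 10.16 and 9.56 in BCR culture. It fell by 0.95 ± 0.14 (adjusted p = 0.000407) and by 0.75 ± 0.14 (adjusted p = 0.00164), and at day 10 came closest to its day 0 level among the cultured groups. Chac1 rose in TLR culture from 7.26, 7.88 and 7.22 to 9.94, 8.68 and 8.52, by 1.59 ± 0.44 (adjusted p = 0.0324). The Chac1 call was lost without TLR replicate 1 or 3 at day 7 or TLR replicate 1 at day 10, where the count was 1, and with the fit on the groups compared alone. In BCR culture the count was 2 without replicate 3 at day 7, which brought in Atf5. Of the others, Atf4, Atf5, Ddit3, Trib3, Asns, Phgdh, Mthfd2 and Aldh1l2 passed at this step in neither culture, with differences of -0.82 (Aldh1l2) to 0.95 (Phgdh) in TLR and -0.25 (Phgdh) to 0.72 (Atf5) in BCR culture. Macrophage markers stood at 11200, 12800 and 1120 CPM in the 3 BCR libraries of day 10, against 157 to 488 at day 7. In the TLR libraries they stood at 78.5, 2380 and 323 CPM at day 10, against 68.8 to 114 at day 7.

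**Figure D2:**
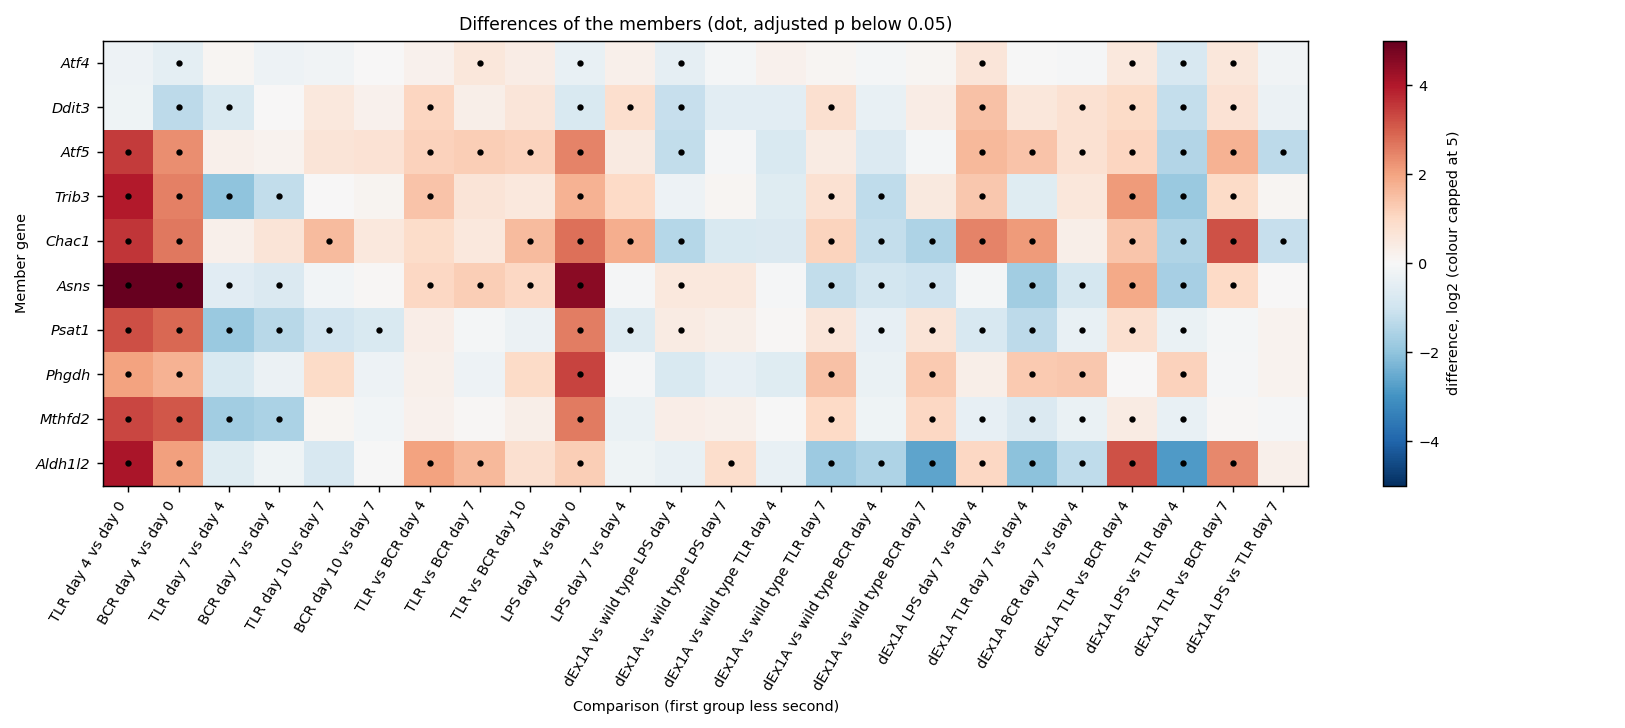
Differences of the 10 genes (rows) in the 24 comparisons of groups (columns), on the log2 scale, red where the group named before "vs" was higher and blue where it was lower, with a dot where the adjusted p was below 0.05. The colour is capped at 5, which Asns passed at day 4 of both TLR and BCR culture, at 6.76 and 5.71.

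The comparison of TLR with BCR culture asked whether the kind of activation set the level of the response. In wild type cells every member that passed was higher in TLR culture: 5 of 10 at day 4, against 7.57% of all genes changed, 4 of 10 at day 7, against 6.27%, and 3 of 10 at day 10, against 14.4%. In dEx1A cells 9 of 10 were higher in TLR culture at day 4, against 16.7%, and 7 of 10 at day 7, against 31.5%, and none was lower. The median difference of the 10 at days 4, 7 and 10 in wild type was 0.98, 0.54 and 0.71, where all genes had -0.01, -0.04 and -0.04. In dEx1A it was 1.02 at day 4 and 0.84 at day 7, beside -0.05 and -0.06. Asns and Atf5 passed in all 5 of these comparisons, and Aldh1l2 in 4.

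Aldh1l2 had the widest gap at day 4 of both genotypes. Its wild type libraries at day 4 read 9.04, 9.06 and 9.29 in TLR and 6.99, 6.91 and 7.45 in BCR culture, and the dEx1A libraries 9.11, 8.24 and 8.96 against 5.42, 5.41 and 5.88. The groups did not overlap in either genotype. The differences were 2.01 ± 0.28 (adjusted p = 0.000111) and 3.2 ± 0.26 (adjusted p = 6.86e-11). At day 7 they were 1.61 ± 0.28 (adjusted p = 0.00223) in wild type and 2.42 ± 0.26 (adjusted p = 1.5e-08) in dEx1A cells. At day 10 the libraries overlapped, with 7.85, 7.67 and 7.62 in TLR and 6.74, 6.26 and 7.67 in BCR culture (difference 0.82 ± 0.28, adjusted p = 0.0557). Same-numbered libraries deviated together in this comparison, and with the replicate number as a block in these groups the Aldh1l2 difference passed (0.82 ± 0.25, adjusted p = 0.0307).

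Asns was higher in TLR culture by 1.05 ± 0.21 (adjusted p = 0.00328), 1.22 ± 0.21 (adjusted p = 0.00193) and 1.04 ± 0.21 (adjusted p = 0.00463) at days 4, 7 and 10 of wild type culture. In dEx1A cells it was higher by 1.89 ± 0.17 (adjusted p = 5.79e-10) at day 4, with libraries of 11.9, 11.6 and 11.75 against 10.11, 9.69 and 9.78, and by 1.0 ± 0.17 (adjusted p = 2.89e-05) at day 7. All 15 TLR libraries of Asns lay above all BCR libraries of their own genotype and day. The wild type call at day 4 did not hold with median-centred libraries (adjusted p = 0.0535).

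Among the regulators, Atf5 was higher in TLR culture by 1.17 ± 0.3, 1.22 ± 0.3 and 1.14 ± 0.3 at days 4, 7 and 10 of wild type culture (adjusted p = 0.0193, 0.0204 and 0.0192). In dEx1A cells the Atf5 difference was 1.09 ± 0.29 at day 4 and 1.74 ± 0.29 at day 7 (adjusted p = 0.00683 and 1.74e-05). Atf4 was higher in TLR culture at day 7 of wild type culture by 0.57 ± 0.14 (adjusted p = 0.0194), and by 0.54 ± 0.11 (adjusted p = 0.000829) and 0.57 ± 0.11 (adjusted p = 0.000238) at days 4 and 7 of dEx1A culture. Its dEx1A libraries at day 7 read 12.74, 12.63 and 12.7 in TLR and 12.42, 11.91 and 12.04 in BCR culture. Ddit3 was higher in TLR culture at day 4, by 1.08 ± 0.27 (adjusted p = 0.0169) in wild type and 0.94 ± 0.25 (adjusted p = 0.00894) in dEx1A cells, and at day 7 of dEx1A culture by 0.73 ± 0.25 (adjusted p = 0.0283), where the libraries overlapped.

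Trib3 was higher in TLR culture at day 4 by 1.44 ± 0.33 (adjusted p = 0.00998) in wild type and by 2.11 ± 0.33 (adjusted p = 1.77e-05) in dEx1A cells. At day 7 it differed by 0.66 ± 0.33 (adjusted p = 0.281) in wild type and was higher by 0.95 ± 0.33 (adjusted p = 0.0286) in dEx1A cells. Chac1 differed by 0.91 ± 0.44 (adjusted p = 0.278) at day 4 of wild type culture and was higher by 1.57 ± 0.44 (adjusted p = 0.0255) at day 10. In dEx1A cells Chac1 was higher in TLR culture at both days, and its largest gap between these cultures was at day 7, with 8.46, 8.34 and 8.96 in TLR and 5.78, 5.11 and 5.27 in BCR culture. That difference was 3.2 ± 0.32 (adjusted p = 3.7e-09). The enzymes of the serine and folate route differed less: Phgdh passed in none of these 5 comparisons, and Psat1 and Mthfd2 passed at day 4 of dEx1A culture alone, by 0.82 ± 0.1 (adjusted p = 3.56e-07) and 0.42 ± 0.13 (adjusted p = 0.0194).

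Several wild type counts between the cultures rested on single libraries. At day 4 the count was 2 without TLR replicate 2 or BCR replicate 1, 3 without TLR replicate 1 or BCR replicate 3, and 2 with the fit on the groups compared alone. At day 7 it was 2 without TLR replicate 1 or 2 or BCR replicate 1 or 2. At day 10 it was 1 without TLR replicate 1 or BCR replicate 2, 6 without BCR replicate 3, and 5 with the replicate number as a block in these groups, which brought in Atf4 (0.38 ± 0.11, adjusted p = 0.0245) and Aldh1l2. Macrophage markers in TLR replicates 1, 2 and 3 of day 10 stood at 78.5, 2380 and 323 CPM. BCR replicate 3 had the fewest macrophage reads of its group, at 1120 CPM. Against that library alone, taken to vary like the other groups and with a wider error for an arm of 1, Asns differed by 0.53 ± 0.24 and the count was 0. Fibroblast markers at day 7 summed to 2.42 to 6.99 CPM in wild type TLR against 23.2 to 29.8 in BCR cultures. In dEx1A cultures the sums were 23.9 to 26.8 against 284 to 430. Col1a1 and Col1a2 of that list did not show the dEx1A gap. Their log2 values there were 5.71 ± 0.12 and 5.37 ± 0.33 (SD) in TLR and 5.39 ± 0.4 and 5.55 ± 0.23 in BCR culture. In wild type both genes were lower in TLR culture, at 4.19 ± 0.33 and 4.8 ± 0.66 against 5.23 ± 0.4 and 5.79 ± 0.2. The part of feeder RNA in the members' differences was not tested.

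The other lists were counted between the cultures at day 4, where 7.57% of all genes differed in wild type and 16.7% in dEx1A cells. In wild type cells none of 12 tRNA synthetases, 8 eIF2 kinase and phosphatase genes or 16 genes of the XBP1 and ATF6 branch passed, and 2 of 11 transporters and 2 of 16 other synthesis genes were higher in TLR culture. Of 16 other ATF4 or CHOP targets 5 were higher in TLR culture and none lower in wild type cells, and 10 were higher and 1 lower in dEx1A cells. Vldlr led with 2.38 ± 0.28 and 2.43 ± 0.25, followed by the mTORC1 inhibitor gene Ddit4 in wild type, at 1.48 ± 0.25. The arginine and lysine transporter gene Slc7a3 was higher by 2.58 ± 0.28 in wild type and 4.04 ± 0.21 in dEx1A cells. Among other synthesis genes Cth and Pycr1 were higher in TLR culture in wild type, by 1.15 ± 0.2 and 1.46 ± 0.34. Among serine, glycine and folate enzymes the cytosolic Shmt1 was lower, at -0.83 ± 0.15, and no other of the 12 passed in wild type. In dEx1A cells 6 of 11 transporters, 6 of 12 tRNA synthetases and 10 of 16 genes of the XBP1 and ATF6 branch were higher in TLR culture and none lower. There 3 other synthesis genes were higher and 1 lower, 2 serine, glycine and folate enzymes were higher and 2 lower, and 2 eIF2 kinase and phosphatase genes were higher and 1 lower.

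**Figure D3:**
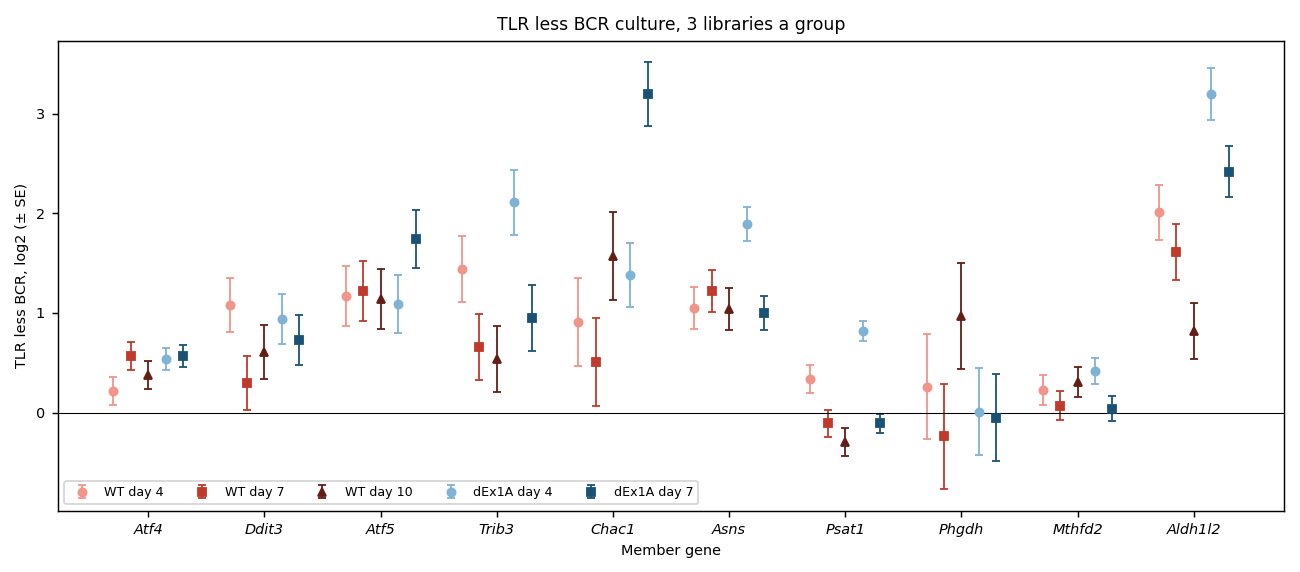
Difference between TLR and BCR culture (vertical axis, log2, with the standard error) for each of the 10 genes (horizontal axis) at days 4, 7 and 10 of wild type and days 4 and 7 of dEx1A culture. Aldh1l2 stood at 2.01 and 3.2 at day 4, and Chac1 in dEx1A cells at 3.2 at day 7, while Phgdh lay on both sides of 0.

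The wild type LPS culture, which had no trace of feeder RNA beyond 0.98 fibroblast CPM, was compared with day 0 and then over time. All 10 members changed at day 4, 8 up and 2 down, against 58.0% of all genes. This comparison crosses the library sets, the sexes and the ages. Asns, at 9.69, 9.24 and 9.78, rose by 4.52 ± 0.17 (adjusted p = 6.2e-20), and Phgdh, at 12.67, 12.59 and 12.68, by 3.36 ± 0.44 (adjusted p = 1.15e-07). Ddit3 fell by 0.76 ± 0.25 (adjusted p = 0.0111) and Atf4 by 0.38 ± 0.11 (adjusted p = 0.00471). After the correction for GC content and length every direction was the same. The values that moved most were Atf5, from 2.47 to 1.29, Trib3, from 1.73 to 0.78, and Atf4, from -0.38 to -0.95, and all 10 calls were kept. The other rises as fitted were Chac1 by 2.74 ± 0.32, Mthfd2 by 2.61 ± 0.13, Psat1 by 2.56 ± 0.1 and Aldh1l2 by 1.24 ± 0.26.

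From day 4 to day 7 of wild type LPS culture, within 1 library set, 3 of 10 members passed, against 8.4% of all genes. Chac1 went from 6.44, 6.38 and 6.34 to 8.06, 7.99 and 8.59, a rise of 1.83 ± 0.32 (adjusted p = 0.000342). Ddit3 rose from 8.24, 8.08 and 8.16 to 8.83, 9.01 and 9.19, by 0.85 ± 0.25 (adjusted p = 0.0323), which 7 of 13 alternatives did not keep. Psat1 fell by 0.66 ± 0.1 (adjusted p = 8.77e-05). Trib3 differed by 1.0 ± 0.33 without passing (adjusted p = 0.0605), although its libraries did not overlap. Atf4, Atf5, Asns, Phgdh, Mthfd2 and Aldh1l2 did not pass, with differences of -0.32 (Mthfd2) to 0.45 (Atf5).

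The dEx1A groups were compared with wild type in each culture at days 4 and 7. In TLR and BCR culture genotype cannot be told apart from the labelled sex and age. In BCR culture at day 4, the genotype comparison with the fewest genes changed (1.86% of all genes), 5 of 10 members were lower in dEx1A cells and none higher. Both groups belong to the deeper library set but differ in labelled sex and age. Aldh1l2 read 6.99, 6.91 and 7.45 in wild type and 5.42, 5.41 and 5.88 in dEx1A cells, a difference of -1.55 ± 0.26 (adjusted p = 0.000418). Asns, at 10.91, 10.38 and 11.0 against 10.11, 9.69 and 9.78, differed by -0.9 ± 0.17 (adjusted p = 0.00175). Trib3 was lower by -1.28 ± 0.33 (adjusted p = 0.0372), Chac1 by -1.2 ± 0.32 (adjusted p = 0.0429) and Psat1 by -0.41 ± 0.1 (adjusted p = 0.0285). None of the 5 overlapped between genotypes, but 7 of the 10 members did not, and overlap was not counted over all genes. Atf4, Atf5, Ddit3, Phgdh and Mthfd2 did not pass, with differences of -0.69 (Atf5) to -0.09 (Atf4). The directions were the same after the correction for GC content and length, with Aldh1l2 at -1.53 and Asns at -0.99. The count was 2 without wild type replicate 1 or dEx1A replicate 2 or 3, 3 without wild type replicate 2 or 3, 3 with the replicate block, and 0 with the fit on the groups compared alone.

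Transporters of the same response were lower there too: of 11, 3 were lower and none higher, against 1.86% of all genes changed. Among them were Slc7a3 at -1.66 ± 0.21 (adjusted p = 5.49e-06), the neutral amino acid carrier gene Slc1a4 at -0.92 ± 0.18 and the glycine carrier gene Slc6a9 at -1.68 ± 0.38. Antibody-secreting cell markers summed to 6190 to 7210 CPM in wild type and 3950 to 4480 in dEx1A cells at this point, and their part was not tested.

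In TLR culture at day 4, where the genotypes again differ in labelled sex and age, no member passed, against 7.23% of all genes. At an unadjusted p below 0.05 limma counted 2 of 10 members, against 4570 of the 20331 genes tested. At the adjusted threshold the voom fit on recovered reads called 0 members. The count was 1 with the correction for GC content and length, with median-centred libraries and without wild type replicate 3. The largest differences were Atf5 at -0.77 ± 0.29 (adjusted p = 0.0993) and Chac1 at -0.73 ± 0.32 (adjusted p = 0.166). Asns read 11.75, 11.7 and 11.98 in wild type and 11.9, 11.6 and 11.75 in dEx1A cells, a difference of -0.06 ± 0.17. Atf4, Ddit3, Trib3, Psat1, Phgdh, Mthfd2 and Aldh1l2 lay between -0.61 (Trib3) and 0.23 (Atf4). With the correction for GC content and length Atf4 passed, at 0.5 (adjusted p = 0.0145). Whether the genotype difference at day 4 differed between TLR and BCR culture was not tested.

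At day 7 the TLR and BCR comparisons of genotype cross the library sets as well as sex and age. In TLR culture 8 of 10 passed, against 54.8% of all genes, 6 higher and 2 lower in dEx1A cells. In BCR culture 6 of 10 passed, against 50.8%, 3 higher and 3 lower. The BCR count lies near its background and is no result about the members. Asns and Aldh1l2 were lower in both cultures. Asns in TLR culture read 11.41, 11.29 and 11.06 in wild type and 10.18, 9.85 and 9.98 in dEx1A cells, a difference of -1.25 ± 0.17 (adjusted p = 6.99e-07). In BCR culture Asns differed by -1.03 ± 0.17 (adjusted p = 1.1e-05). Aldh1l2 differed by -1.82 ± 0.26 (adjusted p = 1.48e-06) in TLR culture. In BCR culture its libraries read 6.75, 6.78 and 7.23 in wild type and 4.02, 4.53 and 4.33 in dEx1A cells, lower than any at day 0, with a difference of -2.63 ± 0.26 (adjusted p = 1.87e-09). With the correction for GC content and length, Asns stood at -1.07 in both cultures and Aldh1l2 at -1.43 and -2.3.

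Psat1 and Mthfd2 were higher in dEx1A cells at day 7 of both cultures. Psat1 differed by 0.62 ± 0.1 (adjusted p = 1.05e-05) in TLR and 0.63 ± 0.1 (adjusted p = 8.76e-06) in BCR culture, and by 1.06 and 0.84 after the correction. Mthfd2 differed by 0.99 ± 0.13 (adjusted p = 2.55e-07) and 1.02 ± 0.13 (adjusted p = 1.22e-07), and by 1.18 and 1.02 after it. Cycling markers stood at 1080 to 1840 CPM in dEx1A and 737 to 1260 in wild type TLR cultures, and at 1740 to 2620 against 1470 to 2060 in BCR cultures. Antibody-secreting cell markers stood at 16500 to 43300 in dEx1A against 122000 to 210000 in wild type BCR cultures. The part of either was not tested.

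Atf5, Trib3, Chac1, Phgdh and Atf4 have exons of 55.1 to 61.3% GC, and the other 5 members of 47.8 to 51.7%. The called genotype differences of TLR and BCR culture at day 7 that turned or lost their call with the correction were of the first 5. In TLR culture Trib3 was higher in dEx1A cells by 0.78 ± 0.33 (adjusted p = 0.0478) as fitted and lower, at -0.84, after the correction, and Chac1 went from 1.13 ± 0.32 (adjusted p = 0.00356) to -0.29. Atf5, at 0.42 ± 0.29 without passing, stood at -1.53 after it, and Atf4, at 0.1 ± 0.11, at -0.78. In BCR culture Atf4 went from 0.1 ± 0.11 to -0.6 and Trib3 from 0.49 ± 0.33 to -0.63. Atf5 there was -0.1 ± 0.29 as fitted and -1.4 after the correction, and Ddit3 was 0.39 ± 0.25 and -0.05. No direction is given for these values. Phgdh, higher by 1.48 ± 0.44 (adjusted p = 0.00553) in TLR and 1.29 ± 0.44 (adjusted p = 0.0155) in BCR culture, kept its direction at 0.45 and 0.52 and lost both calls. Ddit3 was higher in TLR culture by 0.82 ± 0.25 (adjusted p = 0.00758) and by 0.52 after the correction. Chac1 in BCR culture was lower both ways, at -1.56 ± 0.32 (adjusted p = 0.000179) and -2.64.

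**Figure D4:**
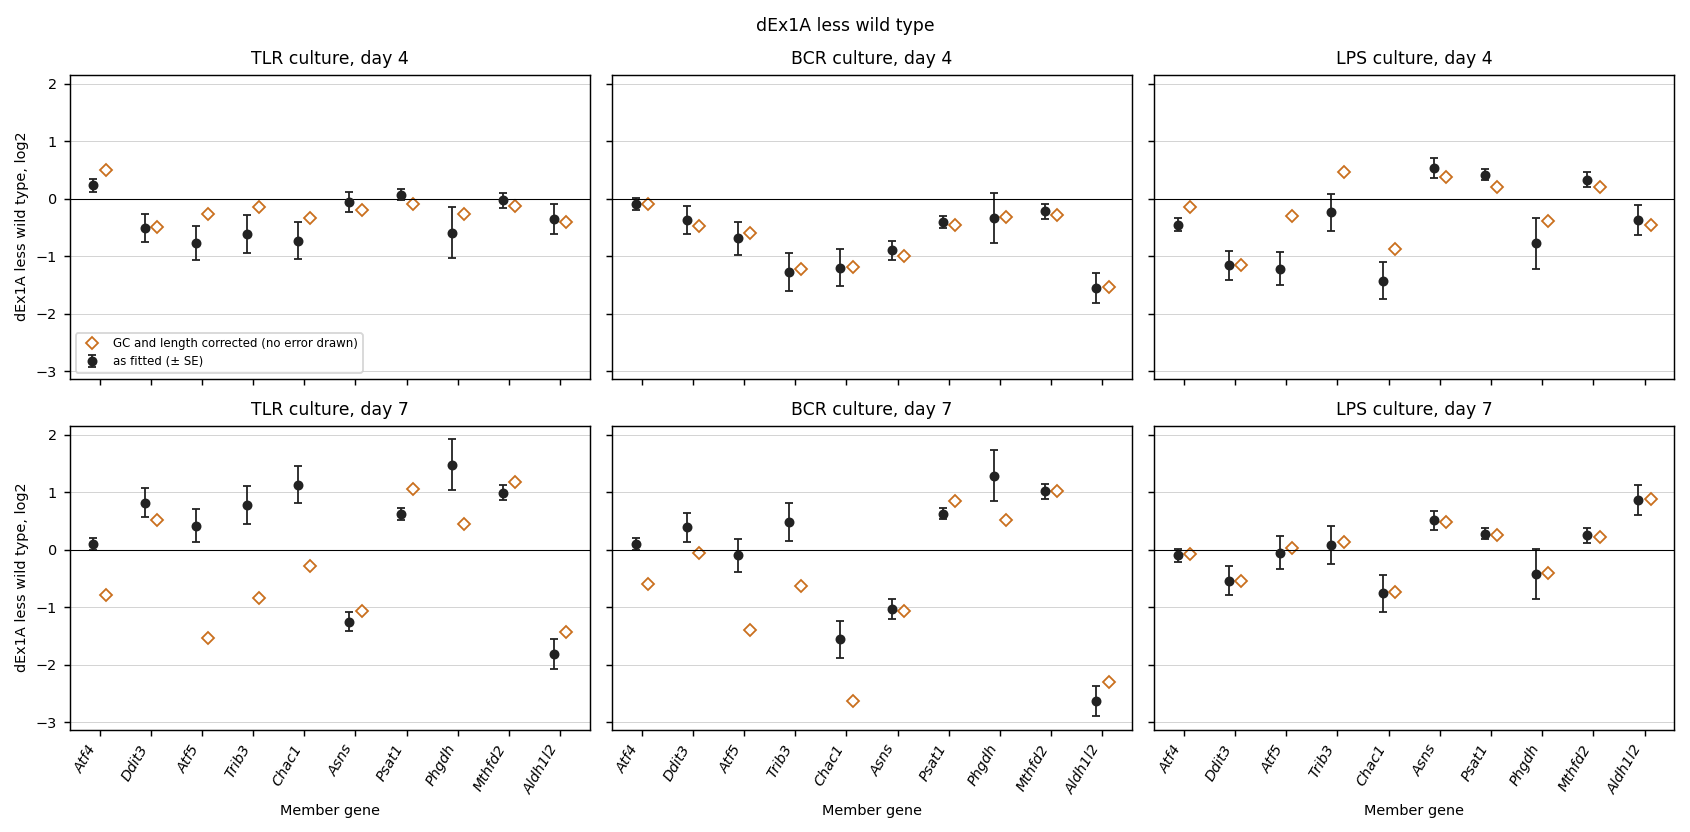
Difference between dEx1A and wild type (vertical axes, log2) for the 10 genes (horizontal axes) in TLR, BCR and LPS culture at days 4 and 7, as fitted with the standard error (filled) and after the correction for GC content and length (open, drawn without an error). Open and filled points lie close at day 4 of BCR culture and day 7 of LPS culture, while at day 7 of TLR culture Atf5 moves from 0.42 to -1.53.

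In LPS culture at day 7, where both genotypes share the library set, sex and age, 1 of 10 members passed, against 7.08% of all genes. Aldh1l2 read 5.83, 5.97 and 6.49 in wild type and 7.07, 6.45 and 7.38 in dEx1A cells, a difference of 0.87 ± 0.26 (adjusted p = 0.0361), with an overlap of 1 library on each side. Asns differed by 0.51 ± 0.17 (adjusted p = 0.0714) and Chac1 by -0.76 ± 0.32 (adjusted p = 0.185), each without overlap. Atf4, Atf5, Ddit3, Trib3, Psat1, Phgdh and Mthfd2 lay between -0.54 (Ddit3) and 0.28 (Psat1). The count was 0 without wild type replicate 2 or dEx1A replicate 1 or 3, with voom on recovered reads and with the fit on the groups compared alone. It was 2 without wild type replicate 3 and with the replicate block, and 3 with the correction for GC content and length. Leaving out wild type replicate 1 also took the Aldh1l2 call and brought in Psat1.

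At day 4 of LPS culture the genotypes lie in different library sets, and 6 of 10 members passed, against 24.4% of all genes. Ddit3 read 8.24, 8.08 and 8.16 in wild type and 6.75, 7.04 and 7.21 in dEx1A cells, a difference of -1.16 ± 0.25 (adjusted p = 0.00107) that stood at -1.15 after the correction. Chac1 differed by -1.43 ± 0.32 (adjusted p = 0.00131), and by -0.88 after it. The calls of Atf5 (-1.22 ± 0.29), Atf4 (-0.45 ± 0.11), Asns (0.53 ± 0.17) and Psat1 (0.42 ± 0.1) were lost with the correction, which put Atf5 at -0.31, Atf4 at -0.14, Asns at 0.38 and Psat1 at 0.21. Trib3, Phgdh, Mthfd2 and Aldh1l2 did not pass, with differences of -0.78 (Phgdh) to 0.33 (Mthfd2). Antibody-secreting cell markers summed to 39000 to 43700 CPM in wild type and 6880 to 13200 in dEx1A cells.

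Within dEx1A cells the step from day 4 to day 7 crosses the library sets in all 3 cultures. The members called were 8 of 10 in LPS, against 34.1% of all genes, 7 of 10 in TLR, against 62.1%, and 7 of 10 in BCR culture, against 53.9%. The TLR and BCR counts lie near their background and are no result about the members. Asns fell in TLR culture from 11.9, 11.6 and 11.75 to 10.18, 9.85 and 9.98, by 1.75 ± 0.17 (adjusted p = 6.52e-10), and in BCR culture by 0.86 ± 0.17 (adjusted p = 0.000134). Aldh1l2 fell by 2.06 ± 0.26 (adjusted p = 7.8e-08) and by 1.28 ± 0.26 (adjusted p = 0.000177) in the same cultures and rose in LPS culture by 1.04 ± 0.26 (adjusted p = 0.00232). All of these held after the correction. Ddit3 rose in LPS culture by 1.47 ± 0.25 (adjusted p = 4.12e-05) and Chac1 by 2.49 ± 0.32 (adjusted p = 4.7e-07), with 1.42 and 1.83 after the correction. Atf5, as fitted higher at day 7 of TLR culture by 1.43 ± 0.29 and of BCR culture by 0.78 ± 0.29, stood at -0.81 and -0.86 after it. In BCR culture Trib3 and Chac1 stood at 0.55 and 0.29 as fitted and -0.87 and -1.0 after it, and Psat1 at -0.36 and 0.02. Phgdh, higher at day 7 by 1.29 ± 0.44 in TLR and 1.35 ± 0.44 in BCR culture, stood at 0.09 and 0.42 after the correction and lost both calls. In LPS culture Atf4 (0.59), Trib3 (1.33) and Mthfd2 (-0.4) lost theirs, at 0.22, 0.49 and -0.26, and in BCR culture so did Mthfd2 (-0.34), at -0.16. Atf4 and Trib3 in TLR culture, uncalled at -0.02 and -0.61, stood at -1.04 and -2.5, and Atf4 in BCR culture, at -0.05, stood at -0.85. The BCR count was 3 without replicate 1 at day 7 and with the fit on the groups compared alone.

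An interaction term tested whether the genotype difference was another at day 7 than at day 4. It passed for 9 of 10 members in TLR culture, against 49.4% of all genes, 5 of 10 in BCR culture, against 33.9%, and 1 of 10 in LPS culture, against 5.48%. The interactions that kept their direction and call in TLR culture under the correction for GC content and length were Asns at -1.19 ± 0.24, Aldh1l2 at -1.46 ± 0.37, Mthfd2 at 1.02 ± 0.18, Psat1 at 0.55 ± 0.15 and Ddit3 at 1.32 ± 0.36. In BCR culture they were Psat1 at 1.04 ± 0.15 and Mthfd2 at 1.24 ± 0.18. The others called in TLR culture turned or lost the call: Atf5 went from 1.19 to -1.28, Trib3 from 1.39 to -0.7, Chac1 from 1.87 to 0.03 and Phgdh from 2.06 to 0.71. In BCR culture Trib3 went from 1.77 to 0.58, Phgdh from 1.63 to 0.84 and Aldh1l2 from -1.08 to -0.77, and all 3 calls were lost. Uncalled as fitted, Atf4 went from -0.13 to -1.28 in TLR culture, and in BCR culture Atf4 went from 0.19 to -0.51, Atf5 from 0.59 to -0.8 and Chac1 from -0.35 to -1.45. Asns and Ddit3 in BCR culture did not pass either way. In LPS culture Aldh1l2 passed at 1.24 ± 0.37, a call that 9 of the 12 fits without a single library did not keep. The BCR count was 3 without wild type replicate 1 or 2 or dEx1A replicate 3 at day 4, and without dEx1A replicate 1 at day 7.

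LPS culture of dEx1A cells was also compared with TLR culture. At day 4, with both in the deeper set, all 10 members differed, against 45.3% of all genes, 9 lower in LPS culture and Phgdh higher. Aldh1l2 was lower by -2.85 ± 0.26 (adjusted p = 2.46e-10), with libraries of 6.2, 5.75 and 5.82 against 9.11, 8.24 and 8.96. Trib3 was lower by -1.86 ± 0.33 (adjusted p = 4.36e-05), Asns by -1.65 ± 0.17 (adjusted p = 2.99e-09) and Ddit3 by -1.19 ± 0.25 (adjusted p = 0.000366). Chac1 was lower by -1.52, Atf5 by -1.48, Atf4 by -0.8, Mthfd2 by -0.38 and Psat1 by -0.33, and Phgdh was higher by 1.17. The GC offsets were -0.63 to 0.39 in LPS and -1.9 to -0.39 in TLR libraries, and with the correction the calls of Psat1, Phgdh and Mthfd2 were lost. Fibroblast markers stood at 0.736 to 1.09 CPM in LPS and 90.7 to 169 in TLR cultures. At day 7, again within 1 set, 2 of 10 differed, against 17.4%, with Atf5 lower in LPS culture by -1.29 ± 0.29 (adjusted p = 0.00154) and Chac1 by -1.14 ± 0.32 (adjusted p = 0.0115). The Chac1 call was lost without TLR replicate 3 and the Atf5 call with the fit on the groups compared alone, each of which left a count of 1. Atf4, Ddit3, Trib3, Asns, Psat1, Phgdh, Mthfd2 and Aldh1l2 lay between -0.29 (Ddit3) and 0.25 (Aldh1l2).

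Over the 15 groups the order of the levels differed between members. Atf4 spanned the least: its mean ran from 12.74 at day 0 to 11.91 in dEx1A LPS culture at day 4, and all 14 neighbours in that order overlapped. Ddit3 was highest in wild type LPS culture at day 7, at 9.01, followed by day 0, at 8.92, and the libraries of these groups overlapped. Day 0 was the lowest group for Atf5, Trib3, Chac1, Asns, Psat1, Phgdh and Mthfd2. In each case it did not overlap the next group up, which was not counted over all genes. For Aldh1l2 it was next to lowest, above dEx1A BCR culture at day 7 (4.29 ± 0.26 against 5.06 ± 0.3, SD, n = 3 each). Psat1 was the most finely ordered, with 8 of 14 neighbours overlapping, from dEx1A TLR culture at day 4 (12.42 ± 0.13) through the day 4, day 7 and day 10 groups to day 0 (9.11 ± 0.14). Phgdh was highest in wild type LPS culture at days 4 and 7, at 12.65 ± 0.05 and 12.58 ± 0.12. Next came dEx1A LPS, BCR and TLR culture at day 7, at 12.16 ± 0.17, 12.04 ± 0.37 and 11.99 ± 0.33. All of these groups, and no others, form the set under 20 M reads, so culture and library set cannot be told apart in this order. In the other cultured wild type groups the SD of Phgdh was between 0.56 and 0.9.

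As a description over the 15 group means, which share day 0 and the library sets, members were correlated with each other. The highest values come first. Atf5 went with Chac1 (Pearson r = 0.94), Psat1 with Mthfd2 (r = 0.94), Atf4 with Ddit3 (r = 0.8) and Asns with Aldh1l2 (r = 0.76). These were not separate pairs: Asns also had r = 0.74 with Trib3 and 0.72 with Atf5, and Trib3 had 0.73 with Mthfd2. The highest value of Phgdh was 0.55, with Mthfd2. Atf4 mRNA had r = -0.12 with Asns and -0.12 with Psat1, and Ddit3 had its lowest value with Psat1, at -0.31. Among 6551 other genes whose group means spanned at least 2 log2 units, the one most like Asns was Nars, of asparaginyl-tRNA synthesis (r = 0.95). Rab39b had the same rounded value with Asns. The closest to Chac1 was Pycr1, of proline synthesis, with H1f0 and Dhrs7 at the same rounded value (r = 0.92 each). The closest to Mthfd2 was Ttc25 (r = 0.98), followed by Bcat1 and H2afz (r = 0.97 each). Ddit3 was closest to Colq and Mib2 (r = 0.83 each), followed by Ppp1r15a (r = 0.82). Trib3 was closest to Ptch1 (r = 0.89), followed by Epha2 (r = 0.88) and Ddit4 (r = 0.87). The closest to Phgdh was Mzt2 (r = 0.98), to Psat1 Fancd2 (r = 0.97), to Atf5 Bcl2l2 (r = 0.97), to Aldh1l2 Slamf7 (r = 0.88) and to Atf4 H2-Q7 (r = 0.8).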

How the data were processed

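The deposited tables hold log2 values for each gene, in 21 and 39 columns of which 15 are shared and identical. The authors derived them from RSEM output with a variance-stabilising transformation, as the names of the files state. The submitters' processing notes list RSEM 1.3.0, STAR 2.6.0c, DESeq2 1.22.2, R 3.5.1, Trim Galore 0.6.0 and FastQC 0.11.8. Per the labels' protocols, libraries were stranded total RNA read as single reads of 76 bases. The annotation and strand setting of the authors are not given in those sources. Identifiers were matched to GENCODE M21 (GRCm38) for positions, length and GC content.

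Genes were kept at 1 or more above the floor of 3.04 in at least 3 samples, which left 19497 and 20331 genes. Cnksr3 was dropped because 1 cell lay below the floor. Group means were fitted with limma 3.58.1 in R 4.3.3 over all groups of a table, with empirical Bayes moderation and a trend. Adjusted p is Benjamini-Hochberg over all genes kept, two-sided, called below 0.05. Wild type TLR and BCR comparisons used the smaller table, all others the larger. Errors on differences are SE, and those on group means SD. Reads were recovered by inverting the transformation, and 97.6 to 100.0% of values under 20 reads were whole within 0.1. The scripts were tested on simulated data. No 2 libraries of a group were copies.

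Alternatives were no filter, a correction for GC content and length, a replicate block with and without it, median-centred libraries, voom on recovered reads, only the groups compared, and leaving out each library. Chosen after seeing the data were the fit with replicate 3 as the only day 10 BCR library, which is assumed to vary like the other groups, a replicate block on the groups compared, and the division of libraries at 20 M reads. Members and lists were chosen with earlier results of these data known. Same-numbered libraries deviated together, with all 3 correlations above 0.1, in 4 comparisons: wild type TLR against BCR at day 4 (0.13 to 0.82) and day 10 (0.14 to 0.44), dEx1A TLR against BCR at day 4 (0.26 to 0.64) and dEx1A LPS day 7 against 4 (0.17 to 0.29). This comes from the values, not the labels. The rule for named genes took all 10 members, and other genes by the smallest adjusted p in a list and direction (at most 3), by a shared enzyme step, or as the 3 most correlated over group means. All 10 members are counted in every comparison, and which uncalled members are named with their own value was chosen after the values were seen.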

Additional observations from a re-analysis of the deposited data

Results flagged for a closer look

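The change of the genotype difference between days 4 and 7 was tested for each of the 10 genes in the 3 cultures, and 15 of these 30 interactions passed. By culture, 9 of 10 passed in TLR, against 49.4% of all genes, 5 of 10 in BCR, against 33.9%, and 1 of 10 in LPS, against 5.48%. Each is given as the log2 change of the dEx1A less wild type difference from day 4 to day 7. In LPS culture it was 1.24 for Aldh1l2. In TLR culture it was 1.19 for Atf5, 1.32 for Ddit3, 1.39 for Trib3, 1.87 for Chac1 and -1.19 for Asns. For the serine and folate enzymes in TLR culture it was 0.55 for Psat1, 2.06 for Phgdh, 1.02 for Mthfd2 and -1.46 for Aldh1l2. In BCR culture it was 1.77 for Trib3, 1.04 for Psat1, 1.63 for Phgdh, 1.24 for Mthfd2 and -1.08 for Aldh1l2. With the correction for GC content and length the TLR values of Atf5 and Trib3 turned to -1.28 and -0.7, and those of Chac1 and Phgdh lost their call at 0.03 and 0.71. In BCR culture Trib3, Phgdh and Aldh1l2 lost theirs at 0.58, 0.84 and -0.77. In TLR and BCR culture the dEx1A libraries of day 7 belong to the set under 20 M reads and the other 3 groups of each interaction do not, so the interaction and the library set cannot be told apart. In LPS culture the dEx1A libraries of day 4 are the ones outside that set.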

How the results depend on the processing

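Of the members' differences under all alternatives, 3454 stayed on their side of the threshold without a reversal, 246 lost the call, 61 gained one and 29 reversed. A reversal is a change of sign where the main fit or the alternative called the gene. Changes of sign between uncalled values are among the 3454. All 29 reversals came from the correction for GC content and length, 15 alone and 14 with the replicate block, in comparisons that cross the library sets. They were, with the same value in both: dEx1A against wild type at day 7 of TLR culture, Atf4 -0.78, Atf5 -1.53, Trib3 -0.84 and Chac1 -0.29. In BCR culture they were Atf4 -0.6 and Trib3 -0.63, the latter alone. For dEx1A from day 4 to 7 they were Atf5 -0.81 in TLR culture, and Atf5 -0.86, Trib3 -0.87, Chac1 -1.0 and Psat1 0.02 in BCR culture. For the interactions they were Atf5 -1.28 and Trib3 -0.7 in TLR and Atf4 -0.51 and Atf5 -0.8 in BCR culture. Counts of members called moved by over 1.5 times as follows. With only the groups compared they were 1 and 0 from day 7 to 10 of TLR and BCR culture, 2 and 0 for TLR against BCR at days 4 and 10, 0 for dEx1A against wild type at day 7 of LPS and day 4 of BCR culture, 3 for dEx1A BCR day 7 against 4, and 1 for dEx1A LPS against TLR at day 7. These fits have fewer samples. For TLR against BCR at day 10 this setting called 0 of all 19497 genes tested, and for BCR day 10 against 7 it called 2, so those counts say nothing particular to the members. With voom they were 1 for TLR day 10 against 7, 0 for LPS genotype at day 7 and 0 for the LPS interaction. With the GC and length correction they were 2 for BCR day 10 against 7, 5 for TLR against BCR at day 10, 2 and 3 for the LPS genotype comparison at days 4 and 7, 1 for TLR genotype at day 4 and 5 for dEx1A LPS day 7 against 4. Over all groups replicate numbers did not pair the samples: same-numbered libraries had correlations of -0.61 to 0.82 in the smaller table, over 0.1 in 25 of 63 pairs, and 18 of 63 correlated best with their own number. In the 4 comparisons where they did, the replicate block on the groups compared gave 5 for TLR against BCR at day 10 and, with the GC and length correction, 6 there and 5 for dEx1A LPS day 7 against 4, and without that correction it changed no call but those of Atf4 and Aldh1l2 at day 10. The replicate block over all groups gave 2 for LPS genotype at day 7 and 3 for BCR genotype at day 4. Block with GC correction gave 2 for BCR day 10 against 7, 3 and 3 for LPS genotype at days 4 and 7, 1 for TLR genotype at day 4 and 5 for dEx1A LPS day 7 against 4. Median-centring gave 1 for TLR genotype at day 4 and 0 for the LPS interaction, and no filter 0 for the latter. With replicate 3 as the only day 10 BCR library, assumed to vary like the other groups, TLR against BCR gave 0. The causes were not tested. Median-centring moved the median of all genes by -0.35 to 0.2. Leaving out each library gave counts of 3 to 4 for TLR day 7 against 4, 1 to 2 for day 10 against 7 of TLR and of BCR culture, 2 to 5, 2 to 4 and 1 to 6 for TLR against BCR at days 4, 7 and 10, 0 to 2 for LPS genotype at day 7, 0 to 1 for TLR genotype at day 4, 2 to 4 for BCR genotype at day 4, 3 to 7 for dEx1A BCR day 7 against 4, 1 to 2 for dEx1A LPS against TLR at day 7, and 0 to 1 and 3 to 6 for the LPS and BCR interactions. Depth limits Chac1, Trib3 and Aldh1l2 most, since they lie nearest the value of a count of 0.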
